A study of Drosophila melanogaster with 9 samples.

Results

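The mRNAs that encode neuropeptide and peptide hormone precursors were followed through 3 pools of RNA from Drosophila melanogaster heads. A list of 37 precursor genes was matched by FlyBase symbol, and 32 of them reached at least 10 counts in at least 3 of the 9 libraries. All 32 were among the 13076 features tested, out of 23932 in the gene table. The pools were 80S monosomes (mRNA carrying a lone ribosome), polysomes (mRNA carrying several ribosomes) and total RNA, with 3 libraries each. All libraries came from untreated wild type Dahomey flies, young adults of mixed age, whose frozen heads were lysed and run on sucrose gradients in cycloheximide. Total RNA was a portion of the lysate kept back before the gradient. The 3 libraries of a pool are biological replicates, written below as replicates 1, 2 and 3 in that order. Whole heads hold brain, eye, fat body, muscle and cuticle. In the level of a precursor, fewer peptide-producing cells and less precursor mRNA per cell cannot be told apart.

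Neuropeptides and peptide hormones are cut from larger secreted precursors. The precursor enters the endoplasmic reticulum through a signal peptide, is cleaved at basic residues, is often amidated at its carboxyl end, and is stored in dense-core vesicles until release. In the fly head most of these genes are active in small, stereotyped sets of neurons or neurosecretory cells, from which the peptides act on feeding, sleep, the circadian clock, water balance, growth and moulting. Their open reading frames are short. The longest coding sequence of the 32 genes ranged from 72 codons (SIFa) to 487 codons (Nplp1), with a median of 146 codons, against 455 codons for the 10411 nuclear protein-coding genes tested.

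Libraries held 13555484 to 44096558 counts, of which the 32 precursors made up 0.0620% to 0.126%. Levels are given as CPM, the count of a gene over the scaled total of its library, so that each is a share of its own pool and not an amount of RNA. Neuronal markers (elav, nSyb, brp, Syt1 and Rdl) summed to 4351 to 4846 CPM in total RNA, 3891 to 4266 CPM in 80S monosomes and 6015 to 6330 CPM in polysomes. Fat body markers (Yp1, Yp2, Yp3, Lsp2 and apolpp) were abundant, at 25325 to 47469 CPM in all libraries. The 7 gut proteases were near absent (at most 0.240 CPM), and markers of the trunk nerve cord summed to 25.1 to 41.5 CPM. The sum of 4 germ line markers was 15.4 to 96.5 CPM and was highest in 80S monosomes. There wisp alone was at 40.4 to 73.3 CPM. In 80S monosomes over total RNA wisp, osk and vas had log2 fold changes of 1.61, 0.47 and 0.66, and gnu had -0.08. Adjusted p by edgeR was 0.0104, 0.434, 0.245 and 0.940 in that order, none of them under 0.01. With the replicate number as a block the adjusted p was 1.11e-10, 0.00314, 0.0191 and 0.778. The part of these other cells in the values below was not tested.

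In total RNA the precursors spanned a 637-fold range of CPM per kilobase of exon. CCHa2, which encodes a nutrient-responsive peptide of fat body and gut, was the highest at 262 ± 26.3 CPM per kilobase (SD, n = 3). It was followed by sNPF at 49.9 ± 6.08, ITP at 44.4 ± 2.37, Ms at 39.8 ± 6.40 and AstC at 32.3 ± 4.37 CPM per kilobase. sNPF and ITP, and ITP and Ms, differed by less than the larger SD of each pair. At the low end stood ETH, the ecdysis triggering hormone of the Inka cells on the tracheae, at 0.411 ± 0.0790 CPM per kilobase, and CNMa at 0.585 ± 0.0885. By CPM, 15 precursors exceeded 10 in total RNA, 13 lay between 1 and 10, and 4 (CCAP, ETH, Gpa2 and Gpb5) were below 1.

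The 5 listed genes left out by the count rule were the lowest by mean CPM over the 9 libraries. Akh, the adipokinetic hormone that mobilises stored fat and sugar, had 5, 9 and 7 counts in total RNA, 3, 14 and 12 in 80S monosomes and 0, 3 and 8 in polysomes, and reached 10 counts in 2 libraries. amn, Burs, Pburs and RYa had at most 10.7, 4, 4 and 0.75 counts in any library. Just inside the rule were Gpa2, a glycoprotein hormone subunit with 2 to 16 counts, and ETH with 2 to 26 counts, each at 10 or more in 4 libraries.

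**Figure D1:**
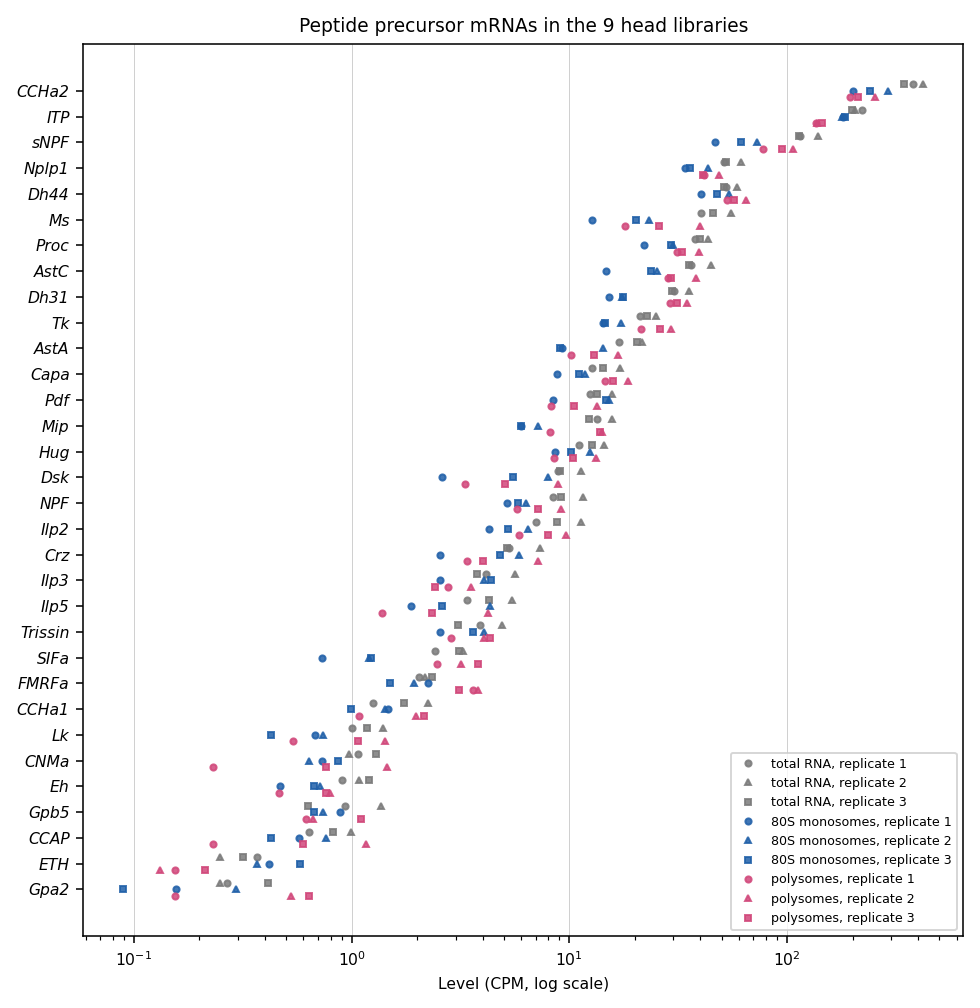
Levels of the 32 precursors in each library, in CPM on a logarithmic axis, with 1 point per library, a colour for each of the 3 pools and a symbol for each replicate number. CCHa2 and ITP stand above all others in every pool. For 19 of the 32 precursors, SIFa, Mip, sNPF and Dh31 among them, the 3 points of 80S monosomes lie below the 3 of total RNA (25.7% of all tested features).

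To ask which precursor mRNAs were under-represented on lone ribosomes, 80S monosomes were compared with total RNA. Precursors were lower in 80S monosomes as a rule: 31 of 32 had a negative log2 fold change, against 6818 of all 13076 features. The middle of the list stood at -0.56 (quartiles -0.82 and -0.35), where that of all tested features was -0.02. 11 of 32 (34.4%) were called lower at an adjusted p under 0.01, against 8.95% of all tested features. They were sNPF, NPF, Tk, AstC, Mip, Nplp1, Ms, SIFa, Proc, Dh31 and CCHa2. None was called higher (6.68% of all features) by edgeR, none had an unadjusted p under 0.05 in that direction, and DESeq2 called none. In 19 of 32 the 3 monosome libraries lay below the 3 of total RNA without overlap, against 25.7% of features, and ETH alone lay above (22.8% of features). All 3 same-numbered pairs were lower in monosomes for 24 precursors (36.8% of features) and higher for 1 (31.8%). With the replicate number as a block, 17 of 32 were called lower (19.2% of features), the added genes being AstA, Dsk, Lk, Capa, Ilp2 and Ilp5. The number called lower fell to 4 without 80S replicate 3 or without any total RNA library, and to 5 without 80S replicate 1 or polysome replicate 3.

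To ask the same of mRNAs carrying several ribosomes, polysomes were compared with total RNA. Again most precursors (25 of 32) lay below 0, as did 7043 of all 13076 features. The median of the precursors was -0.26 on the log2 scale, with quartiles of -0.56 and -0.04. All features together had a median of -0.05. Of the 32, 2 were called lower (6.25%, against 12.2% of all features), CCHa2 and ITP. None was called higher by edgeR (10.4% of features), 1 had an unadjusted p under 0.05 in that direction, and DESeq2 called 1, FMRFa. The groups did not overlap for 10 precursors that were lower (28.9% of features) and for 1 that was higher (24.8%), FMRFa. All 3 same-numbered pairs were lower for 18 (39.9% of features) and higher for 4 (32.5%). With the replicate block 10 were lower (23.4% of features) and FMRFa was higher (17.9%), the added lower genes being sNPF, Ms, NPF, AstA, Nplp1, Dsk, Ilp3 and Ilp5. The median was -0.11 without polysome replicate 1, -0.13 without total RNA replicate 2 and -0.47 without polysome replicate 2. CCHa2 was not called without total RNA replicate 2 (adjusted p = 0.0108). Over all features the split of calls was 1366 higher and 1593 lower, and scaling on nuclear protein-coding genes alone turned it to 1759 higher and 1149 lower.

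**Figure D2:**
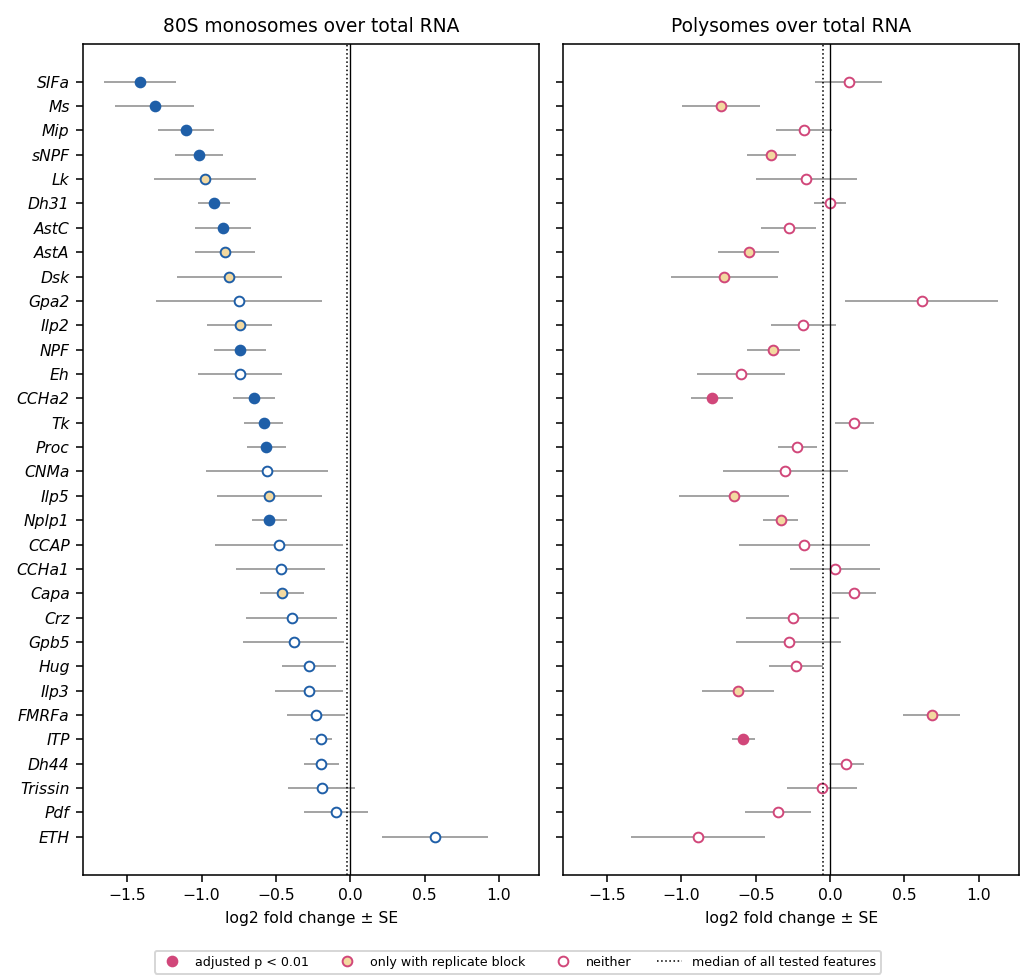
Log2 fold change of each precursor in 80S monosomes over total RNA (left) and polysomes over total RNA (right), with standard errors as bars. Filled points were called at an adjusted p under 0.01, pale points only with the replicate block, and the dotted line is the median of all tested features. On the left 31 of 32 points lie below 0 (6818 of 13076 features), and on the right 25 of 32 (7043 of 13076 features).

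Comparing the ribosomal pools directly, 26 of 32 precursors stood higher in polysomes than in 80S monosomes, against 5353 of all 13076 features. The median of the precursors was 0.31 on the log2 scale, with quartiles of 0.10 and 0.62. All features together had a median of -0.08. 5 of 32 (15.6%) were called higher, against 7.87% of all features: SIFa, Dh31, Mip, FMRFa and Tk. 1 of 32 (3.12%) was called lower, ITP, against 4.31% of features. The polysome libraries lay above the monosome libraries without overlap for 9 precursors (15.9% of features) and below them for 2 (20.6%), ITP and ETH. All 3 same-numbered pairs were higher for 15 (24.8% of features) and lower for 5 (37.3%). With the replicate block 12 were higher (12.8% of features) and 1 was lower (14.2%), and the added genes were sNPF, Ms, AstC, Proc, Capa, Ilp2 and Dh44. Without 80S replicate 3 or polysome replicate 3 the number called higher was 2, and without polysome replicate 2 it was 3. The median was 0.50 without polysome replicate 1, 0.45 without 80S replicate 2 and 0.19 without polysome replicate 2. Over all features 1029 calls were higher and 563 lower. That split was 1098 and 373 with relative log expression size factors and 1119 and 352 with scaling on nuclear protein-coding genes.

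**Figure D3:**
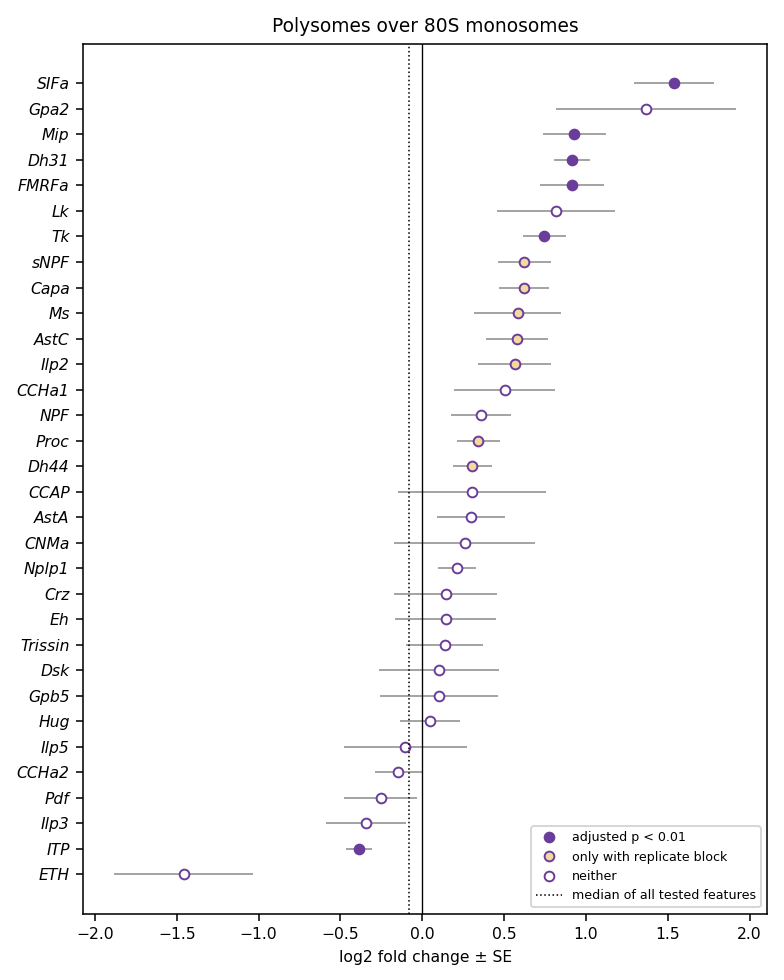
Log2 fold change of each precursor in polysomes over 80S monosomes, with standard errors as bars and the same point styles as for the pools over total RNA. SIFa is the highest of the called genes at 1.54, and ITP is the called gene below 0 at -0.39.

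The comparisons share libraries, so the calls of a gene are set side by side and not counted as separate evidence. For SIFa, Dh31, Mip and Tk the monosome pool was the low one, and it was called below both total RNA and polysomes. By edgeR without the block sNPF, NPF, AstC, Nplp1, Ms and Proc were called lower in 80S monosomes over total RNA and in no other comparison. DESeq2 without the block also called sNPF (adjusted p = 1.78e-04) and AstC (adjusted p = 0.00289) higher in polysomes over 80S monosomes. With the block sNPF and Ms were called in all 3 comparisons, AstC and Proc also in polysomes over 80S monosomes, and NPF and Nplp1 also in polysomes over total RNA. For CCHa2 both ribosomal pools were called below total RNA, for ITP the polysomes were called below either other pool, and for FMRFa they were called above the monosomes. The other 19 precursors passed in no comparison by edgeR without the block, and 8 of them (AstA, Dsk, Dh44, Lk, Capa, Ilp2, Ilp3 and Ilp5) passed in at least 1 with it. DESeq2 without the block called AstA, Capa and Ilp2 lower in 80S monosomes over total RNA (adjusted p = 1.41e-04, 0.00871 and 0.00276). It also called Capa higher in polysomes over 80S monosomes (adjusted p = 6.83e-05).

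Among the brain and clock neuropeptides (17 genes), 9 (52.9%) were called lower in 80S monosomes over total RNA, with a class median of -0.58 on the log2 scale, against 8.95% and a median of -0.02 over all features. In the direct comparison of polysomes with monosomes 4 (23.5%) were called higher, with a class median of 0.36, against 7.87% and -0.08 over all features. SIFa encodes SIFamide, a peptide of a few large brain neurons that acts on courtship, sleep and feeding. The gene (2R, 24577566 to 24578143, minus strand) has the shortest coding sequence of the 32. It was at 2.40, 3.25 and 3.10 CPM in total RNA, 0.729, 1.21 and 1.23 CPM in 80S monosomes and 2.46, 3.17 and 3.79 CPM in polysomes. Every monosome library was below every library of the other pools, which overlapped each other. The log2 fold change was -1.41 (SE 0.24, adjusted p = 0.00172) in 80S monosomes over total RNA. Polysomes over 80S monosomes gave 1.54 (SE 0.25, adjusted p = 0.00109), a ratio of 2.91, and polysomes over total RNA gave 0.12 (SE 0.23, adjusted p = 0.689). Both calls held under all 17 alternatives.

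Mip (3L, 17344947 to 17349666, minus strand) encodes the myoinhibiting peptides, ligands of the sex peptide receptor. It was at 13.4, 15.7 and 12.3 CPM in total RNA, 5.99, 7.21 and 5.98 CPM in 80S monosomes and 8.15, 14.1 and 13.8 CPM in polysomes. Monosome libraries were again the lowest without overlap, and polysome replicate 1 was the lowest of its pool. The log2 fold change was -1.10 (SE 0.19, adjusted p = 0.00177) for 80S monosomes over total RNA, a call that held under all 17 alternatives. For polysomes over 80S monosomes it was 0.93 (SE 0.19, adjusted p = 0.00519), which was lost without any 80S library or without polysome replicate 2 or 3 (adjusted p 0.0103 to 0.0301) and in the fit of the 6 libraries compared (adjusted p = 0.0105).

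Tk (3R, 11994175 to 12005473, minus strand) encodes the tachykinins, made by brain neurons and by endocrine cells of the gut. Its levels were 21.2, 25.0 and 22.8 CPM in total RNA, 14.2, 17.2 and 14.6 CPM in 80S monosomes and 21.4, 29.4 and 26.0 CPM in polysomes. Monosomes were below both other pools, which overlapped. Log2 fold changes were -0.58 (SE 0.13, adjusted p = 0.00663) for 80S monosomes over total RNA and 0.75 (SE 0.13, adjusted p = 0.00197) for polysomes over 80S monosomes. The first was lost without 80S replicate 1 or 3, polysome replicate 3 or any total RNA library (adjusted p 0.0131 to 0.0285), and the second without 80S replicate 3 or polysome replicate 3 (adjusted p 0.0109 to 0.0124). Counts of Tk were not whole in 8 of 9 libraries, so some of its reads were shared with other places in the genome or with other genes. The same held in 8 libraries for CCHa1, 7 for CCHa2 and 6 each for sNPF, AstC, Ms and ITP.

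FMRFa (2R, 9906294 to 9910457, plus strand), the precursor of the FMRFamide-related peptides that act on muscle and neuromuscular junctions, was the 1 gene called higher in polysomes that was not also called lower in 80S monosomes. It was at 2.24, 1.94 and 1.50 CPM in 80S monosomes, 3.61, 3.80 and 3.11 CPM in polysomes and 2.03, 2.18 and 2.34 CPM in total RNA. Polysome libraries were the highest without overlap, and the other pools overlapped. Polysomes over 80S monosomes gave 0.91 on the log2 scale (SE 0.20, adjusted p = 0.00624), lost without 80S replicate 2 or 3 or any polysome library (adjusted p 0.0124 to 0.0293) and in the fit of the 6 libraries compared (adjusted p = 0.0163). Polysomes over total RNA gave 0.68 (SE 0.19, adjusted p = 0.0164, and 0.00506 with the block).

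sNPF (2L, 20027915 to 20056373, plus strand) encodes short neuropeptide F, a widespread brain peptide that acts on feeding and sleep. It was at 114, 139 and 113 CPM in total RNA, 46.8, 72.5 and 61.3 CPM in 80S monosomes and 77.1, 106 and 94.9 CPM in polysomes. The pools stood apart without overlap, with total RNA the highest and 80S monosomes the lowest. For 80S monosomes over total RNA the log2 fold change was -1.02 (SE 0.16, adjusted p = 0.00124) and held under all 17 alternatives. Polysomes over 80S monosomes gave 0.62 (SE 0.16, adjusted p = 0.0172, and 2.82e-06 with the replicate block), and polysomes over total RNA gave -0.39 (SE 0.16, adjusted p = 0.0739, and 2.11e-04 with the block).

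Ms (3R, 24341551 to 24343825, plus strand) encodes myosuppressin, which inhibits contraction of heart and gut muscle. Its levels were 40.1, 55.0 and 45.7 CPM in total RNA, 12.7, 23.1 and 20.3 CPM in 80S monosomes and 18.1, 39.8 and 25.9 CPM in polysomes. Total RNA was above both ribosomal pools without overlap, and replicate 2 was the highest and replicate 1 the lowest in each pool. 80S monosomes over total RNA gave -1.31 (SE 0.27, adjusted p = 0.00414), which was lost without 80S replicate 1 or 3 or any total RNA library (adjusted p 0.0102 to 0.0199) and without a filter on low counts (adjusted p = 0.0353). In polysomes over 80S monosomes the value was 0.58 (SE 0.27, adjusted p = 0.138, and 5.11e-04 with the block). In polysomes over total RNA it was -0.73 (SE 0.26, adjusted p = 0.0463, and 6.18e-06 with the block).

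AstC (2L, 11076165 to 11081399, minus strand), the precursor of the somatostatin-like allatostatin C, was at 36.2, 44.9 and 35.5 CPM in total RNA and 14.7, 25.2 and 23.8 CPM in 80S monosomes. In polysomes it was at 28.4, 38.0 and 29.3 CPM. Monosome libraries were the lowest without overlap, while polysomes and total RNA overlapped. The log2 fold change in 80S monosomes over total RNA was -0.86 (SE 0.19, adjusted p = 0.00604). It was lost without 80S replicate 3, polysome replicate 3 or any total RNA library (adjusted p 0.0108 to 0.0221) and in the fit of the 6 libraries compared (adjusted p = 0.0106). For AstC polysomes over 80S monosomes stood at 0.58 (SE 0.19, adjusted p = 0.0459, and 2.66e-04 with the block).

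NPF (3R, 16609220 to 16611325, plus strand), the fly relative of mammalian neuropeptide Y, was at 8.41, 11.6 and 9.13 CPM in total RNA, 5.19, 6.31 and 5.80 CPM in 80S monosomes and 5.77, 9.13 and 7.15 CPM in polysomes. Monosomes lay below total RNA without overlap, and polysomes overlapped both. 80S monosomes over total RNA gave -0.74 (SE 0.18, adjusted p = 0.00945), close to the threshold and lost without any of 7 libraries, all but polysome replicates 1 and 2 (adjusted p 0.0157 to 0.0419). For polysomes over total RNA the value was -0.38 (SE 0.18, adjusted p = 0.113, and 0.00803 with the block).

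Nplp1 (2R, 25032377 to 25040377, plus strand), a long precursor cut into several peptides, was at 51.2, 61.2 and 52.5 CPM in total RNA, 33.9, 43.3 and 35.9 CPM in 80S monosomes and 41.6, 48.5 and 40.9 CPM in polysomes. Total RNA was above both ribosomal pools without overlap. The log2 fold change in 80S monosomes over total RNA was -0.54 (SE 0.12, adjusted p = 0.00557), lost without 80S replicate 1 or 3, polysome replicate 3 or any total RNA library (adjusted p 0.0102 to 0.0241). In polysomes over total RNA it was -0.33 (SE 0.12, adjusted p = 0.0439, and 4.98e-04 with the block).

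Proc (2L, 7864642 to 7871432, minus strand), the proctolin precursor, whose peptide stimulates muscle contraction, was at 37.7, 43.1 and 40.0 CPM in total RNA and 22.0, 29.9 and 29.4 CPM in 80S monosomes. Its polysome levels were 31.1, 39.4 and 32.9 CPM. Polysomes lay above 80S monosomes without overlap and overlapped total RNA. In 80S monosomes over total RNA the log2 fold change was -0.56 (SE 0.13, adjusted p = 0.00803). That call was lost without any library but polysome replicates 1 and 2 (adjusted p 0.0107 to 0.0285) and in the fit of the 6 libraries compared (adjusted p = 0.0120). Polysomes over 80S monosomes gave 0.34 (SE 0.13, adjusted p = 0.0819, and 0.00303 with the block).

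Pdf (3R, 26455462 to 26456141, minus strand), the pigment-dispersing factor that clock neurons release to keep daily rhythms in step, passed in no comparison. It was at 12.4, 15.7 and 13.4 CPM in total RNA, 8.43, 15.2 and 14.7 CPM in 80S monosomes and 8.23, 13.4 and 10.5 CPM in polysomes. All pools overlapped, and replicate 1 was the lowest in each. Its log2 fold changes were -0.10 (SE 0.22) for 80S monosomes over total RNA, -0.35 (SE 0.22) for polysomes over total RNA and -0.25 (SE 0.22) for polysomes over 80S monosomes, with adjusted p from 0.235 to 0.771. The remaining neuropeptides of this class with no call by edgeR without the block were AstA, Hug, Dsk, CCHa1, Trissin and CNMa. For AstA, the allatostatin A precursor, 80S monosomes over total RNA gave -0.84 (SE 0.20, adjusted p = 0.0102, and 1.83e-06 with the block), and polysomes over total RNA gave -0.55 (adjusted p = 0.0549, and 1.95e-04 with the block). Dsk, the cholecystokinin-like drosulfakinin, gave -0.81 (SE 0.35, adjusted p = 0.104, and 9.89e-04 with the block) in 80S monosomes over total RNA and -0.71 (adjusted p = 0.141, and 0.00260 with the block) in polysomes over total RNA. Hug, CCHa1, Trissin and CNMa had no call in either fit, with log2 fold changes from -0.56 to 0.50 over the 3 comparisons.

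Among the diuretic and osmoregulatory hormones (5 genes), Dh31 and ITP moved in opposite directions between the ribosomal pools. Dh31 (2L, 8491868 to 8506845, minus strand) encodes a calcitonin-like diuretic hormone that also acts on sleep. It was at 30.3, 35.3 and 29.6 CPM in total RNA, 15.2, 17.4 and 17.6 CPM in 80S monosomes and 28.9, 34.8 and 31.2 CPM in polysomes. Monosomes were far below the other pools, which overlapped. The log2 fold change was -0.92 (SE 0.11, adjusted p = 2.53e-04) in 80S monosomes over total RNA and 0.92 (SE 0.11, adjusted p = 1.54e-04) in polysomes over 80S monosomes. Both calls held under all 17 alternatives, and polysomes over total RNA gave -0.00 (SE 0.11, adjusted p = 0.999). Dh31 spans Bace on the same strand, and its count was not whole in 1 of 9 libraries.

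ITP (2R, 24537421 to 24558961, plus strand) encodes ion transport peptide, an antidiuretic hormone. It was at 221, 204 and 199 CPM in total RNA, 181, 180 and 184 CPM in 80S monosomes and 135, 137 and 144 CPM in polysomes. The pools stood apart without overlap in the order total RNA, 80S monosomes, polysomes. In polysomes over total RNA the log2 fold change was -0.58 (SE 0.08, adjusted p = 3.07e-04) and held under all 17 alternatives. In polysomes over 80S monosomes it was -0.39 (SE 0.08, adjusted p = 0.00425). That call was lost with relative log expression size factors (adjusted p = 0.0156), with scaling on nuclear protein-coding genes (adjusted p = 0.0185), in the fit of the 6 libraries compared (adjusted p = 0.0497) and without any library but 80S replicate 1 (adjusted p 0.0120 to 0.0321). In 80S monosomes over total RNA it was -0.20 (SE 0.08, adjusted p = 0.0738).

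**Figure D4:**
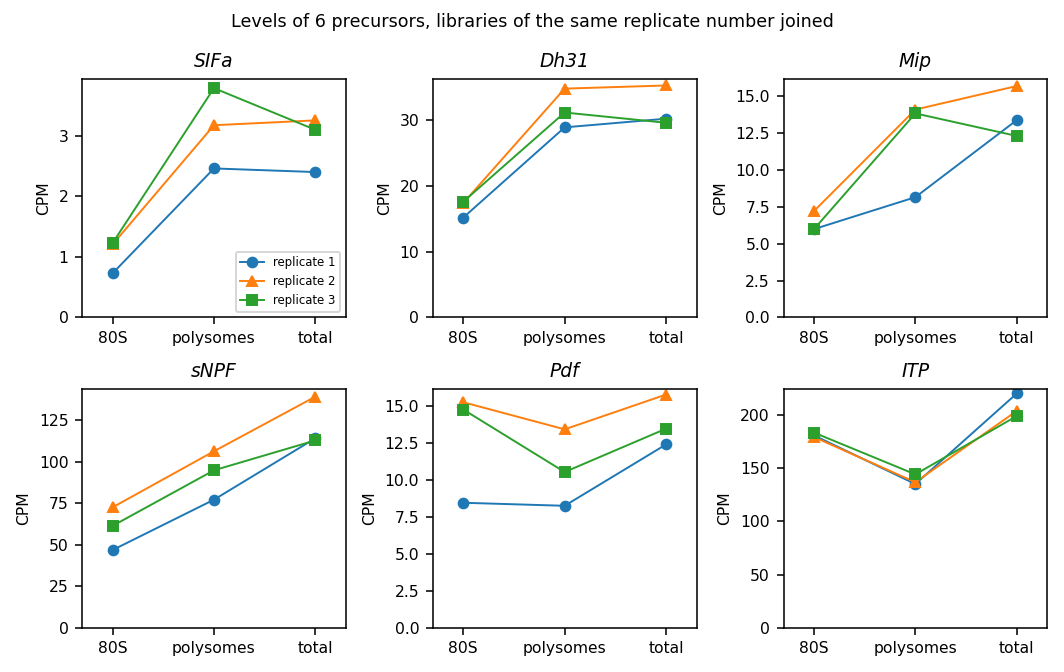
CPM of SIFa, Dh31, Mip, sNPF, Pdf and ITP in 80S monosomes, polysomes and total RNA, on linear axes from 0, with 1 line joining the libraries of each replicate number. For SIFa, Dh31, Mip and sNPF every line is lowest at 80S monosomes, and for ITP every line is lowest at polysomes, at 135 to 144 CPM.

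ITP has 5 annotated transcripts with 2 coding lengths. ITP-RE, of 108 codons, held 23.7% ± 0.294 of the gene's transcript counts in total RNA (SD, n = 3), 21.3% ± 0.507 in 80S monosomes and 20.9% ± 1.62 in polysomes. Its share in total RNA (23.4% to 24.0%) was above all 3 monosome libraries (20.9% to 21.9%) and above the polysome libraries (19.8% to 22.8%). The other 4 transcripts encode 119 codons, and ITP-RD was the most abundant at 49.4% ± 1.04, 47.1% ± 0.814 and 47.2% ± 0.601. Reads over shared exons were split evenly between transcripts, so the shares are not independent measures of isoforms.

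Dh44 (3R, 9638182 to 9650706, plus strand), a diuretic hormone related to corticotropin-releasing factor, was among the most abundant precursors. It passed in no comparison by edgeR without the block. Total RNA held 52.2, 58.9 and 51.6 CPM, 80S monosomes 40.1, 53.9 and 47.7 CPM and polysomes 53.1, 65.0 and 57.2 CPM. All pools overlapped. Its log2 fold change in polysomes over 80S monosomes was 0.31 (SE 0.12, adjusted p = 0.0873, and 0.00241 with the block). Capa, which encodes the periviscerokinins, gave 0.62 (SE 0.15, adjusted p = 0.0125, and 3.59e-05 with the block) in polysomes over 80S monosomes and -0.46 (adjusted p = 0.0381, and 3.80e-04 with the block) in 80S monosomes over total RNA. Lk, the leucokinin precursor, stood at -0.98 (SE 0.35, adjusted p = 0.0523, and 0.00751 with the block) in 80S monosomes over total RNA.

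Of the metabolic hormones (5 genes), CCHa2 (3R, 13389059 to 13395197, minus strand) was called lower in both ribosomal pools. It was at 379, 422 and 345 CPM in total RNA, 201, 290 and 241 CPM in 80S monosomes and 195, 253 and 213 CPM in polysomes. Total RNA was above both ribosomal pools without overlap, and these overlapped each other. 80S monosomes over total RNA gave -0.65 (SE 0.14, adjusted p = 0.00635), lost without 80S replicate 1 or 3, polysome replicate 3 or any total RNA library (adjusted p 0.0101 to 0.0267) and in the fit of the 6 libraries compared (adjusted p = 0.0103). Polysomes over total RNA gave -0.79 (SE 0.14, adjusted p = 0.00160), and polysomes over 80S monosomes -0.15 (SE 0.14, adjusted p = 0.496). Fat body markers, whose cells also make CCHa2, were lowest in replicate 1 of every pool, and their part in the CCHa2 values was not tested.

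The insulin-like peptides Ilp2, Ilp3 and Ilp5 are released by median neurosecretory cells of the brain and act on growth and sugar levels. Ilp2 (3L, 9799698 to 9800440, plus strand) was at 7.02, 11.3 and 8.73 CPM in total RNA, 4.27, 6.47 and 5.20 CPM in 80S monosomes and 5.86, 9.66 and 7.96 CPM in polysomes. Monosomes lay below total RNA without overlap. Ilp2 overlaps CG32052 on the same strand, and its count was not whole in 2 libraries. Its log2 fold change was -0.74 (SE 0.22, adjusted p = 0.0255, and 1.78e-05 with the block) in 80S monosomes over total RNA and 0.56 (SE 0.23, adjusted p = 0.0926, and 8.58e-04 with the block) in polysomes over 80S monosomes. Ilp3 (3L, 9801298 to 9802120, minus strand) was at 4.14, 5.65 and 3.77 CPM in total RNA, 2.55, 4.03 and 4.38 CPM in 80S monosomes and 2.77, 3.53 and 2.43 CPM in polysomes. Polysomes lay below total RNA without overlap, at -0.62 on the log2 scale (SE 0.24, adjusted p = 0.0632, and 0.00741 with the block). Ilp5 (3L, 9823349 to 9823897, minus strand) was at 3.40, 5.46 and 4.27 CPM in total RNA, 1.87, 4.30 and 2.61 CPM in 80S monosomes and 1.38, 4.23 and 2.34 CPM in polysomes. Its pools overlapped, with 80S monosomes over total RNA at -0.54 (SE 0.35, adjusted p = 0.273, and 0.00605 with the block) and polysomes over total RNA at -0.65 (SE 0.37, adjusted p = 0.185, and 0.00212 with the block). Whether these genes differ from each other in response was not tested. Crz, the corazonin precursor, passed in neither fit, with -0.39 (SE 0.31) in 80S monosomes over total RNA.

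The ecdysis and cystine knot hormones (5 genes) were all low in the head. CCAP, Eh, ETH, Gpa2 and Gpb5 had mean levels of 0.309 to 1.06 CPM in total RNA and passed in no comparison, by edgeR with or without the block or by DESeq2. ETH was at 0.367, 0.248 and 0.316 CPM in total RNA, 0.416, 0.369 and 0.580 CPM in 80S monosomes and 0.154, 0.132 and 0.213 CPM in polysomes. Monosome libraries were the highest and polysome libraries the lowest, without overlap. Its values rested on 2 to 26 counts and gave -1.46 (SE 0.42, adjusted p = 0.0286) for polysomes over 80S monosomes. Gpa2 and Gpb5, both subunits of a glycoprotein hormone, gave 1.37 (SE 0.55, adjusted p = 0.0953) and 0.10 (SE 0.36, adjusted p = 0.869) for polysomes over 80S monosomes. Gpa2 had 2 to 16 counts a library.

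Because short coding sequences hold fewer ribosomes, the precursors were set beside the 5405 nuclear protein-coding genes with a longest coding sequence of 72 to 487 codons. The set was chosen by this range alone and not matched on length within it, so the part of coding length was not tested. In 80S monosomes over total RNA the median was -0.01 over all 10411 nuclear protein-coding genes and -0.18 over the 5405. Of the 5405 genes 11.1% were called lower and 1.09% higher, where the precursors had -0.56 and 34.4% lower. In that comparison 3785 of the 5405 genes and 31 of the 32 precursors lay below 0. Monosome libraries were lower without overlap for 35.0% of the 5405 genes and 59.4% of the precursors. With the replicate block 27.8% and 53.1% were called lower. For polysomes over 80S monosomes the median of the 5405 genes was -0.13, with 1.87% called higher and 4.11% lower, where the precursors had 0.31, 15.6% and 3.12%. In polysomes over total RNA the median of the 5405 genes was -0.30, with 20.1% called lower, where the precursors had -0.26 and 6.25%. Below 0 were 4188 of the 5405 genes and 25 of the 32 precursors. Among the 32 precursors the log2 fold change followed coding length only weakly, with a Spearman correlation of 0.21 for 80S monosomes over total RNA, 0.28 for polysomes over total RNA and 0.11 for polysomes over 80S monosomes. These correlations are descriptions over genes that share the same 9 libraries.

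**Figure D5:**
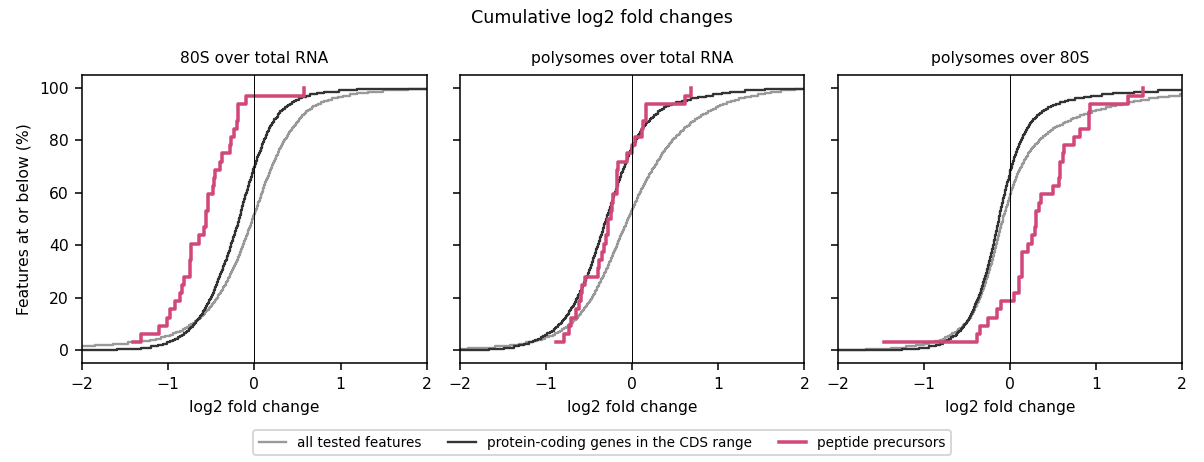
Cumulative distributions of the log2 fold change for the 32 precursors, all 13076 tested features and the 5405 protein-coding genes in the coding-length range of the precursors. At its median the precursor curve lies to the left of both others in 80S monosomes over total RNA (-0.56) and to the right in polysomes over 80S monosomes (0.31), and the curves cross toward the ends.

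Summed over the 32 genes, precursor mRNA made up 1064 to 1245 CPM in total RNA, 652 to 861 CPM in 80S monosomes and 714 to 929 CPM in polysomes. Without CCHa2 and ITP, the most abundant members, the sums were 501 to 619, 271 to 392 and 384 to 539 CPM. Both ribosomal pools were below total RNA in the full sum without overlap, while polysomes and total RNA overlapped once the most abundant members were left out. In pairs of the same number polysomes were still below total RNA, at 384 against 501, 539 against 619 and 449 against 520 CPM. The summed neuronal markers had another order, with polysomes above total RNA and 80S monosomes below it. By log2 fold change brp, Syt1 and Rdl had that order, and elav and nSyb did not. For elav 80S monosomes over total RNA gave 0.30 (adjusted p = 0.0241, and 0.00128 with the block). For nSyb polysomes over total RNA gave -0.07 (adjusted p = 0.607). Replicate 1 was the lowest of its pool for 28 of 32 precursors in polysomes, 21 in 80S monosomes and 18 in total RNA, against 37.1%, 39.3% and 38.8% of all features. Polysome replicate 1 was also the shallowest library.

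The genes that cut, amidate, pack, release or degrade peptides were taken as a companion list of 20 genes, all tested. In polysomes over 80S monosomes 4 (20%, against 7.87% of all features) were called higher and none lower (4.31% of all features) by edgeR. DESeq2 called 6 and 0, and at an unadjusted p under 0.05 the numbers were 7 and 2. The median of the list was 0.06. They were IA-2, a tyrosine phosphatase-like protein of dense-core vesicles, at 0.93 (SE 0.14, adjusted p = 6.17e-04), the vesicle fusion proteins Sytalpha at 0.68 (SE 0.08, adjusted p = 1.37e-04) and Syt7 at 0.41 (SE 0.09, adjusted p = 0.00868), and the peptidase Nep1 at 0.55 (SE 0.10, adjusted p = 0.00253). The Syt7 call was lost without any 80S or polysome library (adjusted p 0.0118 to 0.0379), without a filter on low counts (adjusted p = 0.0104) and in the fit of the 6 libraries compared (adjusted p = 0.0126), and the Nep1 call without 80S replicate 2 or 3 or polysome replicate 3 (adjusted p 0.0141 to 0.0161). In 80S monosomes over total RNA the median was -0.15, and 2 (10%, against 8.95% of all features) were lower, Syt7 (-0.50) and Sytalpha (-0.41). Both were lost without total RNA replicate 1 or 2, and Sytalpha also without 80S replicate 3 (adjusted p 0.0127 to 0.0191). The median in polysomes over total RNA was 0.07, and 1 (5%, against 10.4% of all features) was higher, IA-2 (0.59), which was lost without polysome replicate 1 or 3 or total RNA replicate 2 or 3 (adjusted p 0.0199 to 0.0370). The prohormone convertase amon and the amidating enzyme Phm were not called in any comparison by edgeR without the block. For amon polysomes over 80S monosomes gave 0.31 (adjusted p = 0.0379, and 0.00113 with the block) and 80S monosomes over total RNA -0.23 (adjusted p = 0.0983, and 0.00884 with the block), and for Phm polysomes over total RNA gave -0.27 (adjusted p = 0.190, and 0.00403 with the block). With the block, polysomes over 80S monosomes had 7 higher calls in this list (35.0%, against 12.8% of all features). The monosomes over total RNA had 2 higher (10%, against 15.3%) and 5 lower (25.0%, against 19.2%), and polysomes over total RNA had 4 higher (20%, against 17.9%) and 3 lower (15.0%, against 23.4%).

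Of 14 further peptide precursor genes outside the 37, 13 were tested, and without the block 3 (23.1%, against 8.95% of all features) were called lower in 80S monosomes over total RNA, 2 (15.4%, against 12.2%) lower in polysomes over total RNA and 2 (15.4%, against 7.87%) higher in polysomes over 80S monosomes. Their median log2 fold changes were -0.51 in 80S monosomes over total RNA, -0.07 in polysomes over total RNA and 0.34 in polysomes over 80S monosomes. Orcokinin was at 7.70, 7.63 and 6.77 CPM in total RNA, 2.65, 4.65 and 3.73 CPM in 80S monosomes and 5.69, 8.47 and 6.56 CPM in polysomes. It was called lower in 80S monosomes over total RNA (-0.97, SE 0.20, adjusted p = 0.00441) and higher in polysomes over 80S monosomes (0.90, SE 0.20, adjusted p = 0.00854). The first call was lost without 80S replicate 1 or 3 or any total RNA library (adjusted p 0.0101 to 0.0197). The second was lost without 80S replicate 1 or 3, polysome replicate 2 or 3 or any total RNA library (adjusted p 0.0106 to 0.0367) and in the fit of the 6 libraries compared (adjusted p = 0.0182). Ilp1, at 0.123 to 1.50 CPM, was higher in polysomes over 80S monosomes (2.72, SE 0.54, adjusted p = 0.00415), lost without any 80S library or polysome replicate 1 or 3 (adjusted p 0.0116 to 0.0238). Nplp3 was lower than in total RNA in both 80S monosomes (-1.17, SE 0.26, adjusted p = 0.00686) and polysomes (-1.67, SE 0.27, adjusted p = 8.14e-04). The monosome call of Nplp3 was lost without 80S replicate 1 or 3, polysome replicate 3 or any total RNA library (adjusted p 0.0132 to 0.0225) and without a filter on low counts (adjusted p = 0.0468). Lst, the limostatin precursor, was lower likewise (-0.68, SE 0.13, adjusted p = 0.00299, and -0.71, SE 0.13, adjusted p = 0.00172), with both calls lost without total RNA replicate 2 (adjusted p = 0.0126 and 0.0110). With the block 80S monosomes over total RNA had 6 lower calls among the 13 (46.2%, against 19.2% of all features), polysomes over total RNA had 5 lower (38.5%, against 23.4%) and 1 higher (7.69%, against 17.9%), and polysomes over 80S monosomes had 1 lower (7.69%, against 14.2%) and 4 higher (30.8%, against 12.8%).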

How the data were processed

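Strand-specific, rRNA-depleted single-read libraries were trimmed with Trimmomatic 0.33, mapped with STAR 2.7.10a to BDGP6 and counted per gene and per transcript with featureCounts 2.0.1. The authors deposited estimated counts without normalization: reads with several places or features were split between them, so 33.5% to 42.6% of values per library are not whole. Counts were rounded for testing. Symbols, coding lengths and coordinates come from a newer Ensembl annotation of the same assembly (23851 of 23932 features matched). edgeR 4.0.16 in R 4.3.3 fitted a robust quasi-likelihood model to all 9 libraries (filterByExpr, TMM), with Benjamini-Hochberg adjustment over 13076 features and a threshold of 0.01. The study's methods name DESeq2, which was run as an alternative (1.42.0). SE was taken as the size of the fitted change over the root of its F statistic. CPM were taken from unrounded counts on TMM-scaled library sizes. The script was tested on simulated data.

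Values in every library are given for members called in at least 1 comparison, for the 5 with the highest mean CPM, and for Pdf, NPF, sNPF, Tk, Ilp2, Ilp3, Ilp5 and ITP, and counts for Akh, which did not pass the count rule. Members, lists and tests were chosen with earlier results of these data known. Replicate numbers pair the libraries: after subtracting pool means, libraries with the same number correlated at 0.179 to 0.416 in all 9 pairs, and those with different numbers at -0.329 to -0.00416. Subtracting the means forces negative values on balance between different numbers once those of the same number are positive. The negative values are therefore not separate evidence of pairing. The main test has no block and so does not use the pairing by replicate number, and the study's methods name no block. The marker nos was not matched.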

Additional observations from a re-analysis of the deposited data

How the results depend on the processing

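Of 19 called results for single precursors, 7 held under all 17 alternatives (SIFa and Dh31 in both of their comparisons, sNPF and Mip in 80S monosomes over total RNA, ITP in polysomes over total RNA), and 12 lost the call under at least 1, 63 of the 72 losses being fits that left out 1 library. No direction reversed among them. The cause of the losses was not tested. DESeq2 with the block was added after seeing the data.

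Precursors, polysomes over 80S monosomes (5 higher, 1 lower): higher were 8 by DESeq2, 3 from the 6 libraries compared, 12 with the replicate block, 13 by DESeq2 with the block and 8 at a threshold of 0.05. Lower were 0 with relative log expression size factors, with scaling on nuclear protein-coding genes and from 6 libraries, and 2 at 0.05. Leaving out 1 library gave 2 to 6 higher, 0 to 1 lower and a median of 0.19 to 0.50. 80S monosomes over total RNA (11 lower): the block gave 17, and leaving out 1 library 4 to 12 and a median of -0.72 to -0.53. Polysomes over total RNA (0 higher, 2 lower): higher were 1 each by DESeq2, with scaling on nuclear protein-coding genes, with the block in either tool and at 0.05. Lower were 10 with the block, 8 by DESeq2 with the block and 4 at 0.05. Leaving out 1 library gave 1 to 3 lower and a median of -0.47 to -0.11.

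Processing and vesicle genes, polysomes over 80S monosomes (4 higher): 7 with the block and 8 by DESeq2 with it, and 2 to 4 without 1 library. 80S monosomes over total RNA (0 higher, 2 lower): higher were 2 by DESeq2, 1 with scaling on nuclear protein-coding genes, 2 with the block, 3 by DESeq2 with it and 2 at 0.05, lower were 5 with the block in either tool, and 0 to 2 without 1 library. Polysomes over total RNA (1 higher, 0 lower): higher were 5 by DESeq2, 2 with relative log expression size factors, 3 with scaling on nuclear protein-coding genes, 4 with the block, 6 by DESeq2 with it and 5 at 0.05, with 0 to 2 without 1 library. Lower were 3 with the block and 2 by DESeq2 with it.

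Further precursors, polysomes over 80S monosomes (2 higher, 0 lower): higher were 1 with a filter of 1 CPM in 3 libraries, 1 from 6 libraries and 4 with the block in either tool, lower 1 with the block in either tool, and 0 to 1 higher without 1 library. 80S monosomes over total RNA (3 lower): 6 with the block in either tool, 5 at 0.05 and 0 to 3 without 1 library. Polysomes over total RNA (0 higher, 2 lower): higher 1 with the block in either tool and at 0.05, lower 4 by DESeq2, 5 with the block in either tool and 4 at 0.05, with 0 to 1 higher and 1 to 3 lower without 1 library.

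Precursors below 1 CPM rest on few counts, and reads split between overlapping places cannot be assigned to a gene.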
